A study of Mus musculus with 16 samples.

Results

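Prex2 and Inpp4a on mouse chromosome 1 and Tekt5 and Nit2 on chromosome 16 are 4 genes whose hippocampal RNA signal differed between untreated SAMP8 mice and Control mice, and their 6 probe sets are described here array by array. They were chosen by their untreated SAMP8 minus Control differences on these same arrays, so the SAMP8 and Control values below are a description and carry no test. The 6 probe sets are all those on the array whose single gene symbol is 1 of the 4 names, out of 45037 probe sets for 18193 named genes. The 3 comparisons of antisense treatments within the SAMP8 line did not enter the choice and were tested, although 2 of them share the untreated SAMP8 arrays with it.

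The arrays came from the hippocampus of 16 individual male mice aged 12 months, with 4 mice in each of 4 groups. The AβPP antisense group was SAMP8 mice given an antisense oligonucleotide against the amyloid-β precursor protein by intravenous injection, and the Random antisense group was SAMP8 mice given an oligonucleotide of random sequence by the same route. The untreated SAMP8 group belonged to the same senescence-accelerated line, which by the labels has memory deficits at this age, and the untreated Control group was a 50% backcross of SAMP8 with CD-1 mice, which by the labels has none. The Control mice therefore share part of the SAMP8 genome and are not a separate inbred strain, and no group analysed here was injected without an oligonucleotide.

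Prex2 encodes a guanine nucleotide exchange factor that switches on the small GTPase Rac, and it responds to the membrane lipid PIP3 together with the βγ subunits of G proteins. Inpp4a encodes an inositol polyphosphate phosphatase that breaks down a phosphoinositide made downstream of PI3-kinase, and mice that lack it lose neurons. Tekt5 encodes a tektin, a filament protein of flagellar microtubules known from sperm, and Nit2 encodes ω-amidase, a nitrilase-family enzyme that hydrolyses α-ketoglutaramate, the product left when glutamine gives up its amino group in transamination.

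All values are log2 signals, normalised by the authors, so a difference of 1 is a doubling of signal. Of the 6 probe sets, 5 were over 4 log2 on at least 4 arrays and entered the fit of all 23905 probe sets that met this level. A probe set was called where its adjusted p in limma was under 0.05. Between untreated SAMP8 and Control, 4 of the 5 tested probe sets of the members were called, 1 higher and 3 lower, against a background of 0.36% of all tested probe sets, 0.18% higher and 0.18% lower. Since this comparison chose the genes, nothing is read from that count. Because the RNA came from whole hippocampus, fewer cells of a type and less RNA per cell cannot be told apart.

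Prex2 was the member with the higher signal in the SAMP8 line. Probe set 1436569_at read 9.26, 9.54, 9.86 and 8.84 log2 in AβPP antisense mice and 9.41, 9.24, 9.43 and 9.38 log2 in Random antisense mice. It read 9.25, 9.45, 9.42 and 9.08 log2 in untreated SAMP8 mice, against 8.48, 8.30, 8.05 and 8.10 log2 in Control mice. The 12 SAMP8-line arrays, at 8.84 to 9.86 log2, did not overlap the 4 Control arrays, at 8.05 to 8.48 log2. Untreated SAMP8 averaged 9.30 ± 0.17 log2 and Control 8.23 ± 0.20 log2 (SD, n = 4 each), a difference of 1.07 or 2.09-fold. The second Prex2 probe set, 1432047_at, stayed between 2.09 and 2.20 log2 on all 16 arrays, below the level needed for a test. The difference between the lines was thus measured by a single probe set of this gene.

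Inpp4a had a lower signal in SAMP8-line mice by 1 of its 2 probe sets. The brighter, 1436616_at, read 9.11, 8.89, 8.84 and 8.95 log2 in AβPP antisense mice and 8.85, 8.88, 8.77 and 8.87 log2 in Random antisense mice. In untreated SAMP8 mice it read 8.89, 8.90, 8.93 and 8.85 log2, against 10.70, 10.71, 10 and 9.60 log2 in Control mice. The SAMP8-line arrays lay within 8.77 to 9.11 log2, a narrow band below every Control array. Untreated SAMP8 averaged 8.89 ± 0.03 log2 and Control 10.25 ± 0.54 log2 (SD, n = 4 each), so the signal was lower in SAMP8 by a log2 difference of -1.36, or 2.57-fold. Much of the Control spread came from Control mice 3 and 4, which were the lowest of that group.

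The dimmer Inpp4a probe set, 1421360_at, gave a different picture of the same gene. It read 4.62, 4.27, 5.82 and 3.38 log2 in AβPP antisense mice and 6.31, 6.0, 5.96 and 5.49 log2 in Random antisense mice. It read 6.08, 6.19, 6.31 and 6.22 log2 in untreated SAMP8 mice and 6.26, 6.24, 6.0 and 5.86 log2 in Control mice. Untreated SAMP8 and Control overlapped here, at 6.20 ± 0.09 and 6.09 ± 0.19 log2 (SD, n = 4 each), a difference of 0.11. The lowest values belonged to AβPP antisense mice, of which 3 lay below all other arrays. Subtracting the brighter from the dimmer probe set on each array gave -2.69 ± 0.09 log2 in untreated SAMP8 and -4.16 ± 0.35 log2 in Control (SD, n = 4 each), so the 2 probe sets differed between the lines by 1.47 log2 in their balance. Where in the transcripts each probe set lies was not analysed here.

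Tekt5 was read by a single probe set, 1429355_at, and passed the filter through the Control arrays alone, so it had to differ. It read 2.83, 3.15, 2.82 and 2.90 log2 in AβPP antisense mice and 2.81, 2.82, 2.69 and 2.83 log2 in Random antisense mice. Untreated SAMP8 mice had 2.81, 2.72, 2.80 and 3.34 log2, against 6.55, 5.80, 5.77 and 4.41 log2 in Control mice. Every SAMP8-line array was under the filter level and every Control array above it. Untreated SAMP8 averaged 2.92 ± 0.28 log2 and Control 5.63 ± 0.89 log2 (SD, n = 4 each). Set against the filter level of 4 log2 instead of the SAMP8 values, which are near background, Control was at least 3.10-fold higher.

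Markers of other cell types were set beside Tekt5, whose protein belongs to flagella. Of 8 testis germ cell markers, 6 were under the filter (Prm1, Prm2, Tnp1, Tnp2, Acr and Ddx4) and 2 were above it (Dazl and Sycp3). Their summed level was 6.15 to 6.56 log2 in untreated SAMP8 and 5.69 to 6.22 log2 in Control, ranges that overlap. The ependymal cilia list had Foxj1, Dnah5 and Dnah9 under the filter and 4 genes above it, with a summed level of 7.49 to 8.80 log2 in untreated SAMP8 and 7.25 to 8.18 log2 in Control. The part of either cell type in the Tekt5 difference was not tested beyond these levels.

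Nit2 was also lower in the SAMP8 line, by its single probe set 1418763_at. The values were 6.49, 6.28, 6.48 and 6.25 log2 in AβPP antisense mice and 5.86, 6.41, 6.54 and 6.23 log2 in Random antisense mice. Untreated SAMP8 mice had 6.49, 6.31, 6.75 and 6.44 log2, against 7.46, 7.07, 7.14 and 7.69 log2 in Control mice. The 12 SAMP8-line arrays ended at 6.75 log2 and the Control arrays began at 7.07 log2, so the lines did not overlap. Untreated SAMP8 averaged 6.50 ± 0.18 log2 and Control 7.34 ± 0.29 log2 (SD, n = 4 each), a log2 difference of -0.84, or 1.79-fold lower in SAMP8.

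**Figure D1:**
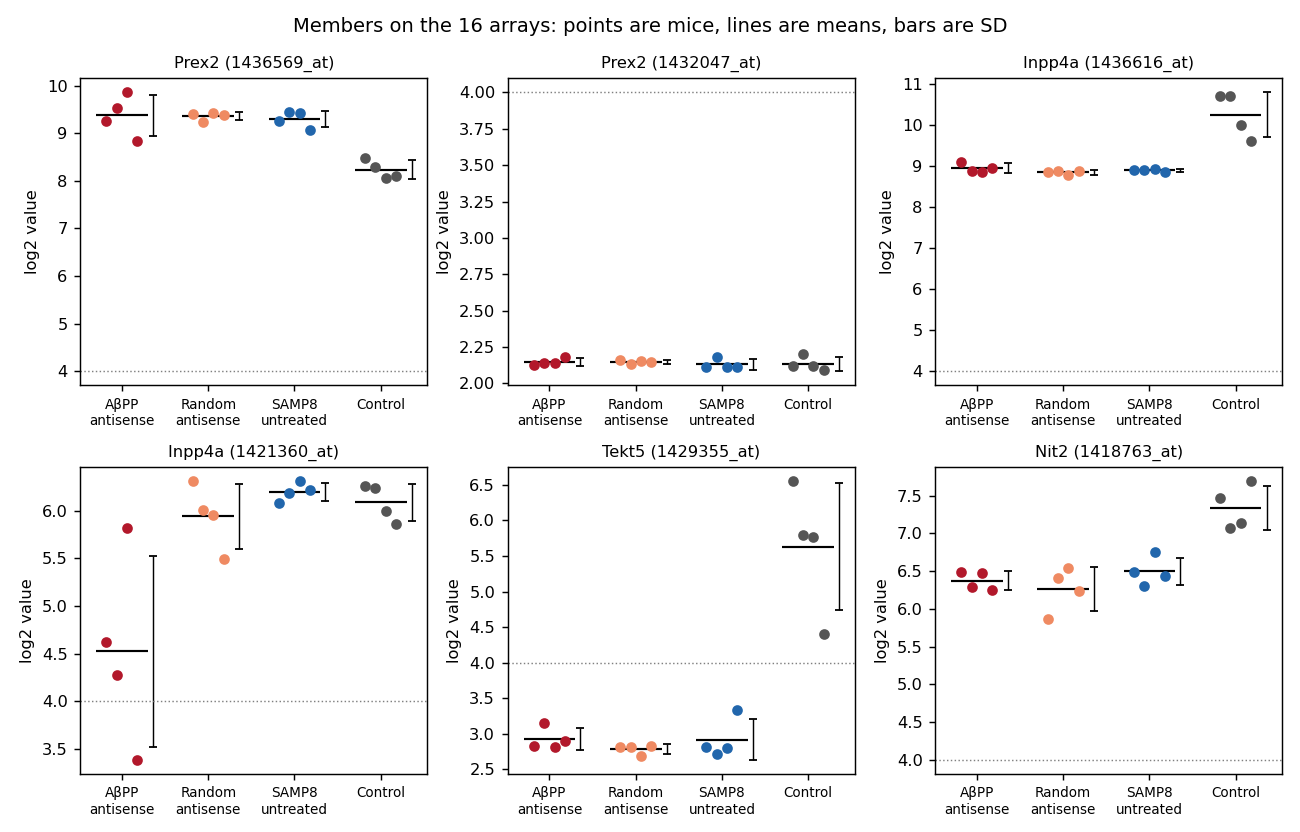
Log2 signal of the 6 probe sets of Prex2, Inpp4a, Tekt5 and Nit2 on each of 16 arrays, 1 panel per probe set, with groups along the x axis; points are mice, lines are group means, bars are SD (n = 4) and the dotted line is the filter level of 4 log2. In 4 panels the Control mice stand apart from all 12 SAMP8-line mice, while Prex2 1432047_at is flat between 2.09 and 2.20 log2 and Inpp4a 1421360_at is lowest in AβPP antisense mice.

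Groups that did not overlap between untreated SAMP8 and Control were not rare on these arrays. Of all tested probe sets, 3.23% had every SAMP8 array above every Control array, as Prex2 1436569_at did, and 1.59% had the reverse, as Inpp4a 1436616_at, Tekt5 and Nit2 did. For Prex2, Inpp4a and Nit2 the treated groups stood at similar distances from Control, although they share the Control arrays with the first comparison and so add no independent evidence. For Prex2 1436569_at the log2 difference from Control was 1.14 in AβPP antisense, 1.13 in Random antisense and 1.07 in untreated SAMP8. For Inpp4a 1436616_at these differences were -1.30 in AβPP antisense, -1.41 in Random antisense and -1.36 in untreated SAMP8. For Nit2 they were -0.96 in AβPP antisense, -1.08 in Random antisense and -0.84 in untreated SAMP8. For Tekt5 all 3 SAMP8-line groups were under the filter level, so the bound of 3.10-fold holds for each and their distances cannot be compared.

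Nit2 was the member closest to the threshold, and was called in 8 of 27 alternative settings. On chromosomes 1 and 16 it was the last of 16 called probe sets. Nearest outside, among the brightest probe sets of genes there, were those of Hspe1, Fstl1 and Tatdn3. They differed by -0.41, -0.57 and 0.45 log2, and Hspe1 encodes a mitochondrial co-chaperonin. By the brightest probe set of each gene, 4 of 671 measured genes were called on chromosome 1 (0.596%), 3 of 371 on chromosome 16 (0.809%) and 26 of 11465 over the whole array (0.227%). Besides the 4 members these were Tmem237 and Ppox on chromosome 1 and Hspa13 on chromosome 16, all higher in untreated SAMP8, by 0.74, 0.75 and 0.81 log2. The members were chosen on this comparison and raise the shares of their own chromosomes, so nothing is read from those shares. Ppox encodes protoporphyrinogen oxidase of haem synthesis and Hspa13 a chaperone of the Hsp70 family.

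The 3 members lower in SAMP8 have a promoter window in RefSeq, shown here because these genes were lower together. Each window is the 250 bases before the annotated start in GRCm38.p6, written 5′ to 3′ on the gene's own strand, with capitals marking matches to the motifs searched. The motifs, sought on both strands, were the cyclic AMP response element TGACGTCA, the GC box GGGCGG, the CCAAT box, the sequence TATAAA and the E-box CACGTG. No match overlaps another. Inpp4a lies at chr1:37299588-37299837 on the plus strand, Tekt5 at chr16:10395456-10395705 on the minus strand and Nit2 at chr16:57167333-57167582 on the minus strand.
Inpp4a: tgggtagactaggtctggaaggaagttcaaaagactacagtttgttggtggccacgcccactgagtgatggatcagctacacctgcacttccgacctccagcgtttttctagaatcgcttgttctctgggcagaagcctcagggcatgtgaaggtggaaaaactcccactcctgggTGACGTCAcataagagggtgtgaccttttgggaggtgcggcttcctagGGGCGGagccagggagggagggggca
Tekt5: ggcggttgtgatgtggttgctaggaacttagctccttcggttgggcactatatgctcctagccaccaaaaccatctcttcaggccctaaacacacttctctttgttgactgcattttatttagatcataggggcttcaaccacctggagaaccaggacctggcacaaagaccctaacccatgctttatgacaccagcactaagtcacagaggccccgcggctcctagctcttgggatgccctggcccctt
Nit2: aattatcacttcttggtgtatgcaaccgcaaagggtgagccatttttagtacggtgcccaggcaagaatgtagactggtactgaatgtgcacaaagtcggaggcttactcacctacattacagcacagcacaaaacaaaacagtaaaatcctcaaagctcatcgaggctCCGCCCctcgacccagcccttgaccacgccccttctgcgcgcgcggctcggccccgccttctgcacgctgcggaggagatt
The Inpp4a window holds 1 cyclic AMP response element and 1 GC box, the Nit2 window 1 GC box, and the Tekt5 window none of the 5 motifs. Among 32851 RefSeq mouse promoter windows of this length, TGACGTCA occurs in 1.55%, GGGCGG in 32.7%, CCAAT in 33.8%, TATAAA in 12.4% and CACGTG in 6.02%. The windows hold 7 CpG pairs for Inpp4a, 4 for Tekt5 and 15 for Nit2, where the median of all windows is 6. Inpp4a has 3 annotated windows, and the one shown starts farthest upstream. No motif is shared by these 3 windows, and a match is a run of letters, not a measured binding site.

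Whether the difference between the lines extended to the surroundings of each gene was described with the 10 nearest measured genes on either side. Of the 80 neighbours, 0 were called between untreated SAMP8 and Control by their brightest probe set, against 0.227% of all genes. At that share few or none of 80 genes would be called anyway, so nothing is read from this count. The median log2 difference was 0.03 around Prex2, -0.00 around Inpp4a, -0.03 around Tekt5 and 0.11 around Nit2. The measured genes nearest to Prex2 on either side were Arfgef1 at -0.03 and A830018L16Rik at -0.15, and those nearest to Inpp4a were Tmem131 at -0.20 and Coa5 at 0.29. Those nearest to Tekt5 were Nubp1 at -0.50 and Emp2 at 0.36, and those nearest to Nit2 were Tomm70a at 0.09 and Tbc1d23 at -0.04. Genes that were not measured may lie between. The members were chosen by this difference, so nothing is read from the smaller values of these 8 genes. The neighbour with the widest difference was Mybl1 near Prex2, at -1.10 against 1.07 for Prex2 itself, and it was not called. These flanking genes are named by position, outside the rule for naming genes.

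Over all 162 tested probe sets of the neighbours, 1 was called (0.617%), against 0.36% of all tested probe sets. Nothing is read from a single call at shares this low. The called probe set was 1438249_at of Usp7, a deubiquitinating enzyme 3 measured genes from Tekt5, with 6.52 log2 in untreated SAMP8 and 8.20 log2 in Control. The 6 other Usp7 probe sets differed by -0.48 to 0.15 log2. As in Inpp4a, 1 probe set differed between the lines where others of the same gene did not, and Usp7 is singled out after its values were seen. By the reference gene order, 103 protein-coding genes lie between Prex2 and Inpp4a and 398 between Tekt5 and Nit2.

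**Figure D2:**
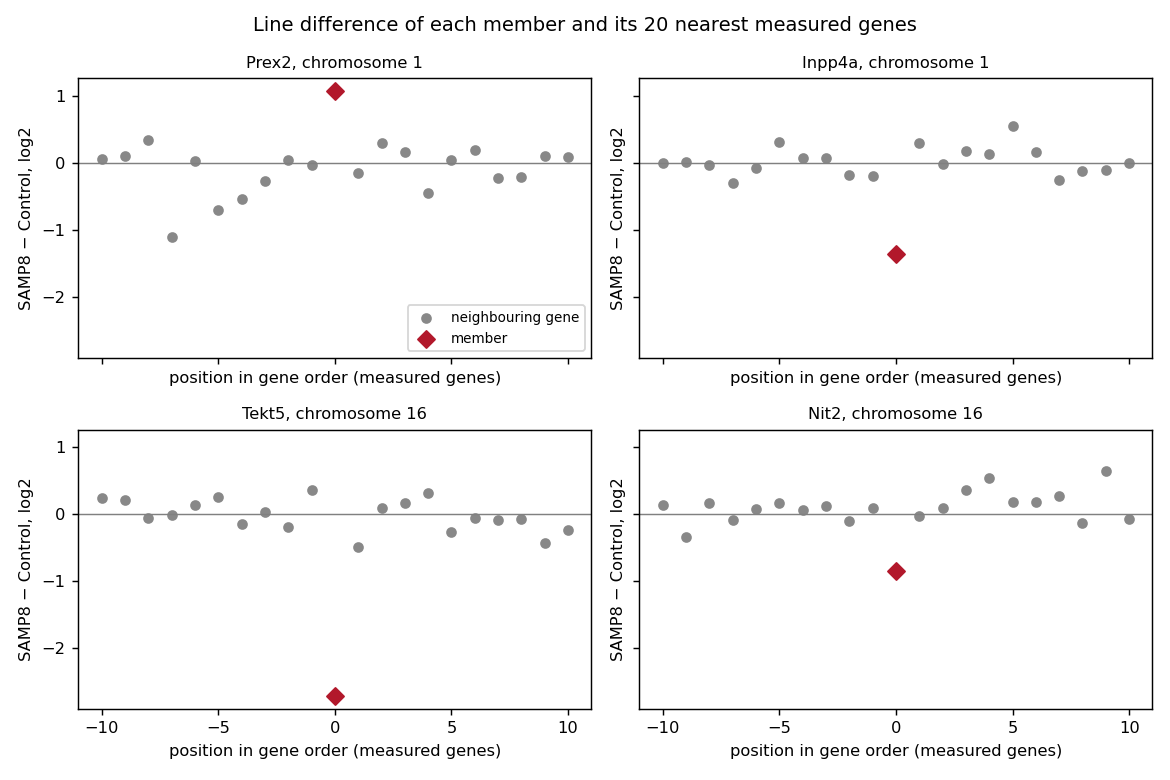
Untreated SAMP8 minus Control log2 difference (y axis) of each member (diamond) and of its 20 nearest measured genes in chromosome order (x axis, steps from the member), by the brightest probe set of each gene, 1 panel per member. The neighbours scatter around 0, with medians between -0.03 and 0.11. The members, chosen by this difference, lie at 1.07, -1.36, -2.71 and -0.84, of which the Tekt5 value is set against background in SAMP8.

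The comparison of antisense treatments asks what an oligonucleotide against the amyloid precursor did to these genes within the SAMP8 line. Neither AβPP antisense nor Random antisense moved any of the 5 tested probe sets past the threshold. In AβPP antisense against Random antisense 0 of 5 were called, with 0.0837% called over all tested probe sets, and in AβPP antisense against untreated SAMP8 0 of 5, with 0.289%. In Random antisense against untreated SAMP8 limma called 0 of 5 and 0% of all tested probe sets, of which 267 had an unadjusted p under 0.05.

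The 4 probe sets that separated the lines were close in the SAMP8 groups. AβPP antisense minus Random antisense was 0.01 log2 for Prex2 1436569_at (95% interval -0.38 to 0.40, limma adjusted p = 0.988) and 0.10 for Inpp4a 1436616_at (-0.31 to 0.52, adjusted p = 0.869). It was 0.11 for Nit2 (-0.25 to 0.47, adjusted p = 0.828) and 0.14 for Tekt5 (-0.54 to 0.81, adjusted p = 0.895), where both groups were under the filter level. For Prex2, Inpp4a 1436616_at and Nit2 each interval ends short of the size of that gene's difference between the lines, but smaller treatment effects within it remain possible. The line differences were chosen for being large. The intervals also rest on a single spread for all groups, while Prex2 1436569_at had an SD of 0.43 log2 in AβPP antisense and 0.09 in Random antisense. For Nit2 the SD was 0.13 log2 in AβPP antisense and 0.29 in Random antisense. The Tekt5 interval was fitted on background values and sets no limit on a treatment effect, and the same holds against untreated SAMP8.

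None of the 4 was called against untreated SAMP8 either. AβPP antisense minus untreated SAMP8 was 0.07 for Prex2 1436569_at (95% interval -0.31 to 0.46), 0.05 for Inpp4a 1436616_at (-0.36 to 0.47), 0.01 for Tekt5 (-0.67 to 0.68) and -0.12 for Nit2 (-0.48 to 0.24), with limma adjusted p between 0.778 and 0.996. Random antisense minus untreated SAMP8 was 0.06 for Prex2 1436569_at (-0.32 to 0.45), -0.05 for Inpp4a 1436616_at (-0.47 to 0.37), -0.13 for Tekt5 (-0.80 to 0.54) and -0.23 for Nit2 (-0.59 to 0.13). The limma adjusted p was 1.00 for each of these 4.

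**Figure D3:**
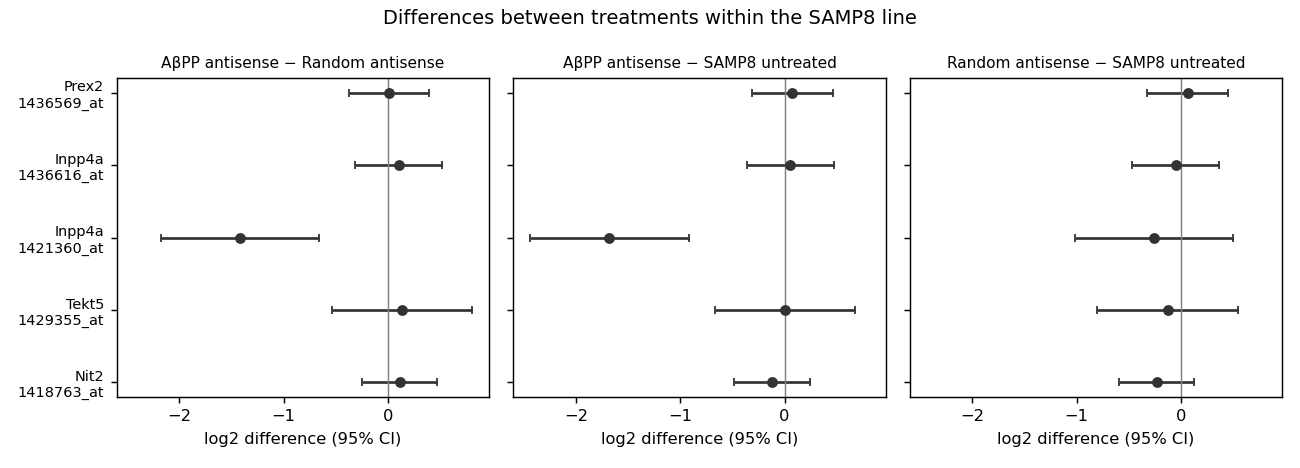
Log2 difference (x axis) with 95% interval for the 5 tested probe sets in the 3 comparisons within the SAMP8 line, 1 panel per comparison. All intervals include 0 except those of Inpp4a 1421360_at against Random antisense, at -1.42, and against untreated SAMP8, at -1.68.

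The dimmer Inpp4a probe set was the exception in size. For 1421360_at, AβPP antisense averaged 4.52 ± 1.01 log2 and Random antisense 5.94 ± 0.34 log2 (SD, n = 4 each), a difference of -1.42 (95% interval -2.18 to -0.66, limma adjusted p = 0.148). The groups overlapped, with AβPP antisense mouse 3 at 5.82 log2 above Random antisense mouse 4 at 5.49 log2, and the exact two-sided permutation p was 0.0571. Against untreated SAMP8 the difference was -1.68 (95% interval -2.44 to -0.92, limma adjusted p = 0.0682). Those groups did not overlap, with all 4 AβPP antisense mice lower, and the exact two-sided permutation p was 0.0286, the smallest that 4 against 4 arrays can give. Of all tested probe sets, 4.41% had AβPP antisense wholly below untreated SAMP8 in this way. Random antisense minus untreated SAMP8 was -0.26 (95% interval -1.02 to 0.50, limma adjusted p = 1.00).

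Whether this probe set was called depended on single arrays. Without AβPP antisense mouse 3 the limma difference was -1.85 against Random antisense (adjusted p = 0.00145) and -2.11 against untreated SAMP8 (adjusted p = 0.000425), both past the threshold. Without AβPP antisense mouse 4 it was -1.04 (adjusted p = 0.191) and -1.30 (adjusted p = 0.0692).

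The balance of the 2 Inpp4a probe sets was also compared between treatments, on each array. The dimmer minus the brighter probe set averaged -4.43 ± 1.05 log2 in AβPP antisense, -2.90 ± 0.35 log2 in Random antisense and -2.69 ± 0.09 log2 in untreated SAMP8 (SD, n = 4 each). The change in this balance was -1.52 against Random antisense, with an exact two-sided permutation p of 0.0571, and -1.73 against untreated SAMP8, with an exact p of 0.0286. Random antisense differed from untreated SAMP8 by -0.21, with an exact p of 0.314. These are 3 of 6 such comparisons made over Inpp4a and Prex2, and adjusted over the 6 the first 2 exact p were both 0.171 and the third 0.629. The subtraction was chosen after the values were seen.

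A measure of RNA quality moved with the dimmer probe set. The array's beta-actin probe sets at the 3′ and 5′ ends of the transcript differed by 1.60, 1.60, 1.21 and 3.89 log2 in AβPP antisense mice. This gap was 1.21 to 1.32 log2 in Random antisense, 1.02 to 1.36 log2 in untreated SAMP8 and 0.84 to 1.21 log2 in Control. AβPP antisense mouse 3, with the smallest gap of its group, had the highest Inpp4a 1421360_at of its group, and AβPP antisense mouse 4, with the widest gap, had the lowest. With this gap as a covariate in limma the difference was -0.89 against Random antisense (adjusted p = 0.295) and -1.09 against untreated SAMP8 (adjusted p = 0.173). The summed blood level was also higher in AβPP antisense, at 7.01 to 10.72 log2, than in Random antisense, at 5.61 to 5.91 log2, and the summed microglia level was 12.58 to 12.81 log2 in AβPP antisense and 12.15 to 12.41 log2 in Random antisense. The part of these cells was not tested, and that of RNA quality was not tested further.

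**Figure D4:**
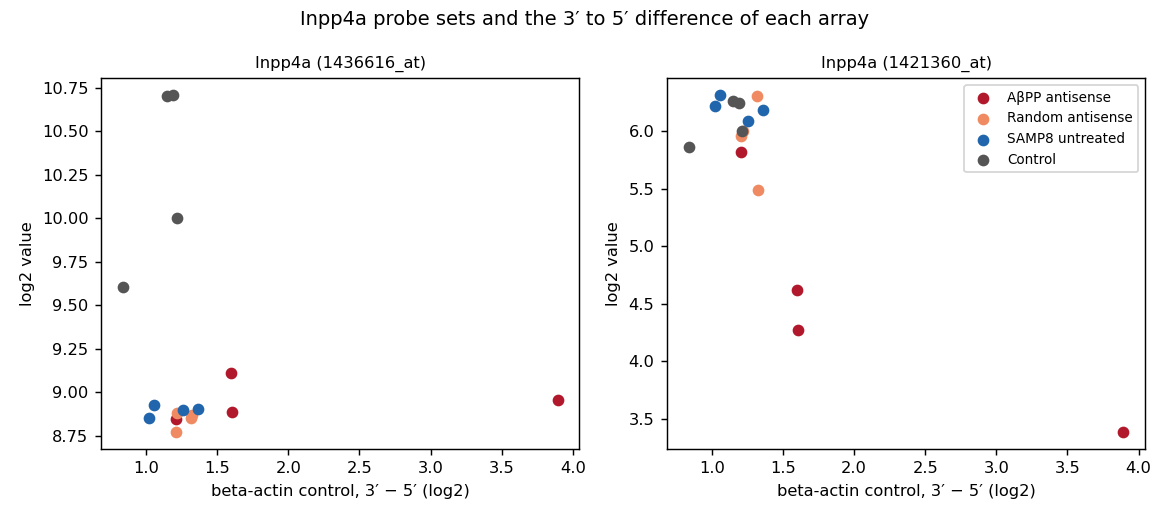
Log2 signal of the 2 Inpp4a probe sets (y axes) against the beta-actin 3′ minus 5′ log2 difference of the same array (x axis), 16 points coloured by group. Inpp4a 1421360_at reads 3.38 on the array with the widest difference, 3.89, and 1436616_at reads 8.95 there, inside the range of the other SAMP8-line arrays.

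Some arrays stood apart over all probe sets. AβPP antisense mouse 4 and Control mouse 4 correlated least with the rest, at a median r of 0.905 and 0.922, and the remaining arrays had medians of 0.958 to 0.989. The median SD of tested probe sets was 0.39 log2 in AβPP antisense, 0.12 in Random antisense, 0.13 in untreated SAMP8 and 0.29 in Control. All 10 hippocampal neuron markers were above the filter, at a summed level of 11.79 to 13.85 log2 in AβPP antisense, 12.71 to 13.17 in Random antisense, 12.92 to 13.15 in untreated SAMP8 and 12.26 to 13.05 in Control. The summed choroid plexus level was 11.18 to 15.30 log2 in AβPP antisense, against 15.30 to 15.78 in Random antisense, 15.61 to 15.95 in untreated SAMP8 and 15.35 to 15.67 in Control. In AβPP antisense mice 1 to 4 the hippocampal neuron level was 13.51, 11.79, 13.85 and 11.80 log2. Their summed thalamus and habenula level was 11.84, 14.15, 11.78 and 13.81 log2. That level was 13.36 to 13.85 log2 in Random antisense, 13.99 to 14.07 in untreated SAMP8 and 13.26 to 14.36 in Control. The part of tissue composition in the treatment comparisons was not tested.

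Control mouse 4 was the lowest Control for Inpp4a 1436616_at and Tekt5 and the highest for Nit2. Its summed leukocyte marker level was 15.26 log2, against 11.54 to 11.84 log2 in the other 3 Control mice and 11.82 to 11.93 log2 in untreated SAMP8, with 6 of 12 markers above the filter. Its summed blood level, with 4 of 7 markers above the filter, was 13.47 log2, against 6.03 to 7.19 log2 in the other 3 Control mice and 5.43 to 8.19 log2 in untreated SAMP8. Its summed microglia level, with 7 of 8 markers above the filter, was 13.21 log2, against 12.01 to 12.48 log2 in the other 3 and 12.32 to 12.40 log2 in untreated SAMP8. The part of these cells in the results was not tested. Without Control mouse 4 the untreated SAMP8 minus Control difference was 1.02 for Prex2 1436569_at and -1.58 for Inpp4a 1436616_at. It was -0.73 for Nit2 and -3.12 for Tekt5, which is set against background in SAMP8. Since the groups do not overlap, no sign could turn. Inpp4a and Tekt5 lay farther from 0, and Prex2 and Nit2 nearer to it, than with the array included.

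Genes whose brightest probe set varied most like each member were found by Pearson correlation over the 16 arrays, as a description. The arrays fall into 2 sets by line, so a gene that differs between the lines gains a high value from that alone, and the correlation within the 12 SAMP8-line arrays is given beside it. For Prex2 the highest were Vmn2r29 at 0.913 (0.702 within the SAMP8 line), Hspa13 at 0.873 (0.407) and Eml5 at 0.867 (0.661). The lowest were Noc2l at -0.939 (-0.812), Exosc9 at -0.908 (-0.306) and Tmem230 at -0.891 (-0.652). Within the SAMP8 line Vmn2r29, Eml5, Noc2l and Tmem230 kept the larger values. Over the 12 SAMP8-line arrays Prex2 1436569_at correlated with the beta-actin gap at -0.593, and at 0.166 without AβPP antisense mouse 4. The part of RNA quality in these correlations was not tested.

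For Inpp4a 1436616_at the highest were Zfp551 at 0.980 (-0.258 within the SAMP8 line), Tekt5 itself at 0.968 (-0.034) and Akr1e1, an aldo-keto reductase, at 0.922 (0.199). The lowest were Rgl1 at -0.924 (-0.081), Efhd2 at -0.916 (0.252) and Ppox at -0.902 (0.246), of which the last 2 changed sign within the SAMP8 line. For Tekt5 the same Zfp551 stood first at 0.979 (-0.346), followed by Inpp4a at 0.968 (-0.034) and Akr1e1 at 0.946 (0.0807). At the other end were Vamp3 at -0.930 (-0.148), Efhd2 at -0.900 (-0.173) and Nudt19 at -0.889 (-0.293). For Inpp4a and Tekt5 the value within the SAMP8 line was near 0, where Tekt5 was under the filter level. With each group's mean subtracted, the 2 correlated at 0.758 over the 16 arrays. Tekt5 was above the filter level in Control mice alone, and Control mouse 4 was the lowest Control for both genes. For Nit2 the highest were Akr1e1 at 0.925 (0.712), Cap1 at 0.907 (0.244) and Hmox2 at 0.891 (0.601), and the lowest Galc at -0.911 (-0.288), Fkbp3 at -0.887 (-0.555) and AU022252 at -0.868 (0.138).

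Few genes of the pathways around the members were called between the lines. Of 132 measured genes in 4 related lists, untreated SAMP8 minus Control gave 0 called higher and 1 called lower, against 0.227% of all genes called, 0.122% higher and 0.105% lower. Each of the 3 treatment comparisons gave 0 called in limma. Over all genes by their brightest probe set the share called was 0.0262% in AβPP antisense minus Random antisense, 0.0959% in AβPP antisense minus untreated SAMP8 and 0% in Random antisense minus untreated SAMP8. An unadjusted p under 0.05 was found in 12 of the 132 genes (9.09%) in the first comparison, against 8.84% of all genes. It was found in 17 (12.9%) in the second, against 10% of all genes, and in 1 (0.758%) in the third, against 1.04%. Nothing is read from shares this close to those over all genes.

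The called gene was Gnb1, in the list of Rac exchange factors and effectors, of which 41 of 49 were measured. That list was written with earlier results of these data known, so nothing is read from the call. Gnb1 encodes a G protein β subunit, of the kind that activates Prex2, and is itself neither a Rac exchange factor nor a Rac effector. Its brightest probe set averaged 10.76 ± 0.32 log2 in untreated SAMP8 and 13.11 ± 0.20 log2 in Control (SD, n = 4 each), a difference of -2.35. Its other tested probe sets differed by -2.29 and -3.00. The last passed the filter through the Control arrays alone, at a mean of 5.34 log2 against 2.34 log2 in untreated SAMP8. It therefore had to differ, and its size is set against background. The median over the Rac list was 0.01 log2, against 0.04 over all genes. Prex1, the closest relative of Prex2, differed by 0.05. In AβPP antisense minus Random antisense the list median was -0.14, against 0.04 over all genes.

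Of 58 PIP3 and phosphoinositide enzymes 51 were measured, with a median line difference of 0.04 log2, against 0.04 over all genes, and 0 called. Those of smallest p were Inpp5b, a phosphatase that removes another phosphate from phosphoinositides, at -0.73, Pi4kb, a lipid kinase, at -1.06 and Mtm1, a phosphatase of endosomal phosphoinositides, at -1.15. Inpp4b, the closest relative of Inpp4a, differed by -0.29. In the treatment comparisons the list medians were -0.02 against Random antisense and -0.05 against untreated SAMP8 for AβPP antisense, and -0.02 for Random antisense against untreated SAMP8.

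Of 47 tektin and sperm flagellum genes 12 were measured, and 0 were called. Their median line difference was 0.18 log2, against 0.04 over all genes, with 11 of 12 above 0, opposite in sign to Tekt5. The share of all genes above 0 was not counted, so nothing is read from this count. Some of the 12 were close to the filter level of 4 log2, such as Spag6 at 4.15 log2 in untreated SAMP8. Those of smallest p were Rsph1 and Rsph9, radial spoke proteins of cilia, at 0.51 and 0.43, and Enkur, another ciliary protein, at 0.38. Tekt1, a relative of Tekt5 found in cilia, differed by 0.13. In AβPP antisense minus Random antisense the list median was -0.17, with 8 of 12 genes below 0, against a median of 0.04 over all genes. It was -0.30 in AβPP antisense minus untreated SAMP8 and -0.21 in Random antisense minus untreated SAMP8, both of which share the untreated SAMP8 arrays with the line difference, so no common direction is read from them. The summed ependymal level of those arrays reached 8.80 log2 in untreated SAMP8 mouse 3, from a list that shares Rsph1 and Tekt1 with this one.

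Of 39 nitrilase and glutamine genes 28 were measured, with a median line difference of 0.06 log2 and 0 called. Those of smallest p were Cad, the enzyme that starts pyrimidine synthesis from glutamine, at -0.59, Slc38a2, a glutamine transporter, at -0.24 and Asrgl1, an asparaginase, at 0.23. Nit1, the closest relative of Nit2, differed by 0.25. The list medians in the AβPP antisense comparisons were 0.00 against Random antisense and 0.02 against untreated SAMP8. The relatives Prex1, Inpp4b, Tekt1 and Nit1 are given for their kinship and fall outside the rule for naming genes.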

How the data were processed

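Hippocampal RNA of 16 mice was measured on 16 arrays, each with cRNA from 4 µg of total RNA of 1 mouse, per the labels. The deposited log2 values were made by the authors with GCRMA, a method that corrects background, normalises between arrays and summarises the probes of a set, as the submitters' processing notes name it without a version. Scanner intensities were not used here, so these steps were not repeated and levels under 4 log2 were treated as background.

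Sample titles gave each array its group and replicate number. For Random antisense mouse 1 the treatment characteristic says none, against its title, source and description; it was kept with Random antisense and counted as untreated SAMP8 in an alternative. Removing 64 control probe sets left 45037, of which 34945 have 1 symbol in GEO's platform annotation. A probe set over 4 log2 on at least 4 arrays was tested, which kept 23905 and left out 21132. The tested probe set of highest mean stood for a gene (11465 genes).

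limma 3.58.1 in R 4.3.3 fitted a one-way layout of 4 groups (degrees of freedom 12 residual, 2.63 prior); p-values were adjusted by Benjamini-Hochberg over all tested probe sets of a comparison. Exact permutation tests were two-sided over 70 splits. The fit was tested on simulated data. Members, lists and rules were chosen with earlier results of these data known. The rule named all member probe sets, the 3 genes most and the 3 least like each member, list members called in any comparison or else the 3 of smallest p between untreated SAMP8 and Control, and called neighbours. Of 9 lists of cell type markers, all but the striatum list are given in the text. Summed levels are log2 of the sum of linear values. Gene order and promoters came from RefSeq on GRCm38.p6, used for order and sequence only, and 3 of 4 members matched a promoter. Alternatives covered centring, filters, array weights, left-out arrays and a beta-actin covariate chosen after seeing the data. Each mouse is a separate biological replicate per the labels, and 4 arrays a group limit the precision. Figures used Python 3.11.15 and matplotlib 3.10.9.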

Additional observations from a re-analysis of the deposited data

Results flagged for a closer look

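In 24 groups of 4 arrays, 6 probe sets by 4 groups, 3 held an array far from the others of its group, and chance alone flags about 1 in 20. All 3 values lie under the filter level of 4 log2. Prex2 1432047_at read 2.18 log2 in untreated SAMP8 mouse 2, where the nearest of the other 3 read 2.12. Tekt5 1429355_at read 2.69 log2 in Random antisense mouse 3, where the nearest read 2.81. Tekt5 1429355_at read 3.34 log2 in untreated SAMP8 mouse 4, where the nearest read 2.81. Leaving out that last mouse changed the Tekt5 difference from Control by less than the spread between replicates.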

How the results depend on the processing

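Differences between untreated SAMP8 and Control ran over 1.01 to 1.15 log2 for Prex2 1436569_at and -1.58 to -1.21 for Inpp4a 1436616_at under the alternatives. Tekt5 ran over -3.12 to -2.41, set against background in SAMP8. Nit2 ran over -0.97 to -0.73 and was called in 8 of 27 settings. The members were chosen on this comparison and their groups do not overlap. Leaving out an array could therefore not turn a sign, and nothing is read from the kept signs. Of the members 4 were called there, but 1 with only the 8 arrays compared, 3 with a replicate block and 2 to 4 with 1 array left out, the lowest without SAMP8 mouse 2 or 3. Member calls stayed at 0 in the treatment comparisons with the replicate block. Same-numbered arrays of different groups share only a number: their deviations from the group means correlated at -0.27 to 0.24, over 0.1 in 9 of 24 pairs, and 5 of 16 arrays correlated best with their own number. Inpp4a 1421360_at gave 1 call in AβPP antisense minus untreated SAMP8 with Random antisense mouse 1 counted as untreated (-1.70, adjusted p = 0.0393) and without both Control mouse 4 and AβPP antisense mouse 4 (-1.30, adjusted p = 0.0437), and 0 to 1 in each AβPP antisense comparison with 1 array left out; the limma adjusted p ranged over its alternatives between 0.000425 and 0.453, and between 0.00145 and 0.567 against Random antisense.

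Values near 0 and not called changed sign. Tekt5 in AβPP antisense minus untreated SAMP8 was -0.0209 with array weights, -0.050 with the beta-actin covariate and -0.070 to 0.147 with 1 array left out. With Random antisense mouse 1 as untreated, Nit2 was -0.020 against Random antisense and 0.0056 against untreated SAMP8 for AβPP antisense, and 0.026 between the other groups. With 1 array left out, Prex2 1436569_at ran over -0.152 to 0.188, -0.088 to 0.252 and -0.010 to 0.114 in AβPP antisense minus Random antisense, AβPP antisense minus untreated SAMP8 and Random antisense minus untreated SAMP8, Tekt5 over -0.196 to 0.010 in the last and Nit2 over -0.020 to 0.204 in the first. The cause was not tested.

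List genes called between untreated SAMP8 and Control were 1 here, 2 with median centring (Inpp5b, Gnb1), 3 with array weights (Inpp5b, Pi4kb, Gnb1), 2 without both of those mice (Pi4kb, Gnb1) and 1 to 2 with 1 left out. In AβPP antisense minus Random antisense they were 2 without both (Synj2, Arhgef6) and 0 to 1, and minus untreated SAMP8 3 without both (Arhgef6, Got1, Slc1a3) and 0 to 6, the highest without AβPP antisense mouse 3. Neighbours called were 2 with array weights (Mybl1, Coa5), 1 without both (Mybl1) and 0 to 1 with 1 left out between the lines, and 1 without both, 1 with the covariate (Sulf1) and 0 to 1 in AβPP antisense minus untreated SAMP8. Over all probe sets, calls numbered 86 (37 to 295) between the lines, 20 (0 to 896) in AβPP antisense minus Random antisense, 69 (5 to 1286) minus untreated SAMP8 and 0 (0 to 19) in Random antisense minus untreated SAMP8; with 1 array left out they were 54 to 115, 11 to 896, 16 to 1286 and 0. With the main filter the list and neighbour counts are out of 132 list genes and 80 neighbours. The share of all genes called in each of these settings is not given, and calls over all probe sets also rose. Nothing is therefore read from these counts. Genes named here were picked after their values were seen. Tekt5 had no value under a filter of 6 log2, and a slide or scan block was not run. Signals near the floor limit Tekt5 and Prex2 1432047_at.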

Other observations

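On chromosomes 1 and 16, 16 probe sets were called between untreated SAMP8 and Control, where 86 of 23905 (0.36%) were called over the whole array. The share on these chromosomes alone was not counted. Of the 16, 9 belong to genes whose brightest probe set was not called. How often this occurs over the whole array was not counted, so nothing is read from these counts. Of these 9, 6 were lower and 3 higher in untreated SAMP8. Probe set 1446265_at of Dnm3, a dynamin, averaged 5.46 log2 in untreated SAMP8 and 8.34 log2 in Control, while its brightest probe set differed by 0.00. Probe set 1441071_at of Kcnq5, a potassium channel, averaged 2.84 log2 in untreated SAMP8, under the filter level of 4 log2, and 7.87 log2 in Control, and its brightest probe set differed by 0.42. Probe set 1444564_at of Apod, a lipid carrier, averaged 1.89 log2 in untreated SAMP8, also under that level, and 6.58 log2 in Control, and its brightest probe set differed by -0.35. Over the 9 genes the brightest probe sets differed by -0.35 to 0.42 log2. These genes were picked after their values were seen, and the probe sequences were not analysed here.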
